A study of Mus musculus with 4 samples.

Results

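The genes described are 48 autophagy and lysosome genes, taken by symbol from a list and kept where FPKM averaged 1 or more over the 4 libraries. All 48 listed genes were found and kept, out of 12895 named genes that met the same limit and 29144 features in the table. FPKM is the number of sequenced fragments scaled to transcript length and to the depth of the library. The genes comprise 28 that build the autophagosome or load it, 18 that encode lysosomal proteins, and the regulators Tfeb and Mtor.

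Striatal tissue came from knock-in mouse lines for Huntington's disease, which form a series of Htt alleles on the C57BL/6J background, 21 weeks after birth, and was flash frozen. Huntington's disease is caused by a lengthened CAG repeat in the huntingtin gene Htt, and the genotype names give the alleles. There was 1 library of poly A+ RNA for each of 4 genotypes. These were HDQ+/+, the wild type (titled WT), homozygous HDQ150/150, homozygous HDQ200/200, and HDQ315/+, which carries 1 copy of its allele. The sex of the animals, their number per library and any pooling were not given in the sources used here. With 1 library per genotype no difference could be set against a spread between animals, so no p-value is given and every value below describes these libraries.

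Autophagy encloses cytoplasm in a double membrane, the autophagosome, which then fuses with the lysosome, where acid hydrolases break down its content. A kinase complex starts the process, a lipid kinase marks the membrane, lipid carriers enlarge it, and a ubiquitin-like conjugation machinery attaches proteins of the Atg8 family, to which cargo receptors bind. Neurons depend on this route to clear aggregated proteins, and huntingtin with a lengthened glutamine tract is among its known substrates. The transcription factor TFEB activates many of these genes through an E-box in their promoters called the CLEAR element, and the kinase mTOR holds TFEB in the cytoplasm when nutrients are plentiful.

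Because of that link, promoters of the genes were searched for the CLEAR core TCACGTGA and for the E-box CACGTG that it contains. Both read the same on either strand. The RefSeq promoter table, with 250 bases before and 50 after each start site on GRCm38.p6, held 39 of the 48 genes. The core was present in 4 of these 39 (10.3%), which were Ctsd, Mcoln1, Ctsa and Atg3, against 1.12% of the 27025 genes in the table (0.974% of its 32851 promoters). By class, it was in 3 of 16 lysosome genes and in 1 of 21 autophagosome genes. The 60 bases around it are shown for all 4, 5′ to 3′ on the strand of the gene, because they are the stretches in which a lysosome gene and an autophagosome gene share the same 8 letters. Capitals mark every match to the core or the E-box.
Ctsd, chr7:142387893-142387952, minus strand: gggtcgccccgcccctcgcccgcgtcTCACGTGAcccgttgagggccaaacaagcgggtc
Mcoln1, chr8:3500447-3500506, plus strand: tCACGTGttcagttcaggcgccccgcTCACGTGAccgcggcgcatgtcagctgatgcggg
Ctsa, chr2:164833734-164833793, plus strand: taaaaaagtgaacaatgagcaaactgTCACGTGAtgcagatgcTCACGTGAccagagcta
Atg3, chr16:45158731-45158790, plus strand: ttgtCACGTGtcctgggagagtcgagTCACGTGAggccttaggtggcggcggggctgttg

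The Ctsa window holds the core at 2 places, and the windows of Mcoln1 and Atg3 each hold a separate E-box upstream of it. The E-box alone was present in 10 of 39 genes (25.6%), against 8.09% of all genes in the table (7.15% of its promoters). It was in 7 of 16 lysosome promoters, those of Ctsa, Ctsd, Ctsf, Ctsl, Gaa, Lamp1 and Mcoln1, and in 3 of 21 autophagosome promoters, those of Atg3, Atg5 and Atg7. A match is a description of the letters, and no match says only that they are not in this window.

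Libraries held between about 25058800 fragments (HDQ150/150) and 36877700 (HDQ+/+). Genes of the mitochondrial genome held 7.53%, 15.4%, 9.10% and 11.3% of them in HDQ+/+, HDQ150/150, HDQ200/200 and HDQ315/+. The part of this share in the ratios below was not tested. Htt was at 7.56, 4.42, 7.68 and 4.78 FPKM in HDQ+/+, HDQ150/150, HDQ200/200 and HDQ315/+. Genes that mark striatal projection neurons were present in every library, but 15, 13 and 8 of 16 were lower by at least 1.5-fold in HDQ150/150, HDQ200/200 and HDQ315/+ than in HDQ+/+. Their summed FPKM ran from 4259 in HDQ+/+ down to 1865, 1874 and 2777 in the mutants. Markers of cortical glutamatergic neurons, neighbours of the striatum, were higher by that size in 8, 7 and 2 of 8, and their summed FPKM was 91.4 in HDQ+/+ and 120.5 to 309.9 in the mutants. All 6 measured choroid plexus markers were lower in each mutant, 6 of 7 thalamic markers were higher in HDQ315/+, and all 6 measured liver markers were higher there, with a summed FPKM of 162 against 0.584 to 1.46 in the other libraries. Liver markers Fgb and Fgg were at 0 in the HDQ+/+, HDQ150/150 and HDQ200/200 libraries, and Fga and Ahsg in the latter pair as well. Astrocyte, oligodendrocyte and endothelial lists had median log2 ratios between -0.28 and 0.01, and the 3 measured blood genes were lower in HDQ200/200 and HDQ315/+. The part of these differences in tissue content in the results below was not tested, and in bulk tissue fewer cells of a type and less RNA per cell cannot be told apart.

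Every one of the 48 genes was expressed in all 4 libraries. On this scale, which is per length and so allows genes to be compared, the lysosome genes were the more abundant class. Their median level in HDQ+/+ was 53.2 FPKM, against 21.2 FPKM for the autophagosome genes, and the medians of the 3 mutant libraries ran from 51.7 to 52.5 and from 19.6 to 22.0 FPKM. The highest level was that of Psap, the precursor of the saposins that help lysosomal enzymes reach their lipids. Psap was at 524, 534, 449 and 541 FPKM in HDQ+/+, HDQ150/150, HDQ200/200 and HDQ315/+. This gene alone gave 31.1% to 32.7% of the summed FPKM of the lysosome class in the 4 libraries.
The next was Gabarapl1, an Atg8 family member, at 344, 377, 260.1 and 419 FPKM in the same order of libraries. Sqstm1, which encodes the cargo receptor p62, came next at 156, 181, 135 and 182 FPKM. Gabarapl2, also of the Atg8 family, followed at 137, 162, 117 and 161 FPKM. In these 4 genes the HDQ200/200 library was the lowest of the 4. Atp6ap1, an accessory subunit of the proton pump that acidifies the lysosome, followed at 127, 151, 138 and 158 FPKM, and here HDQ+/+ was lowest. The lowest level was that of Tfeb, at 3.47, 3.53, 2.42 and 3.49 FPKM.

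**Figure D1:**
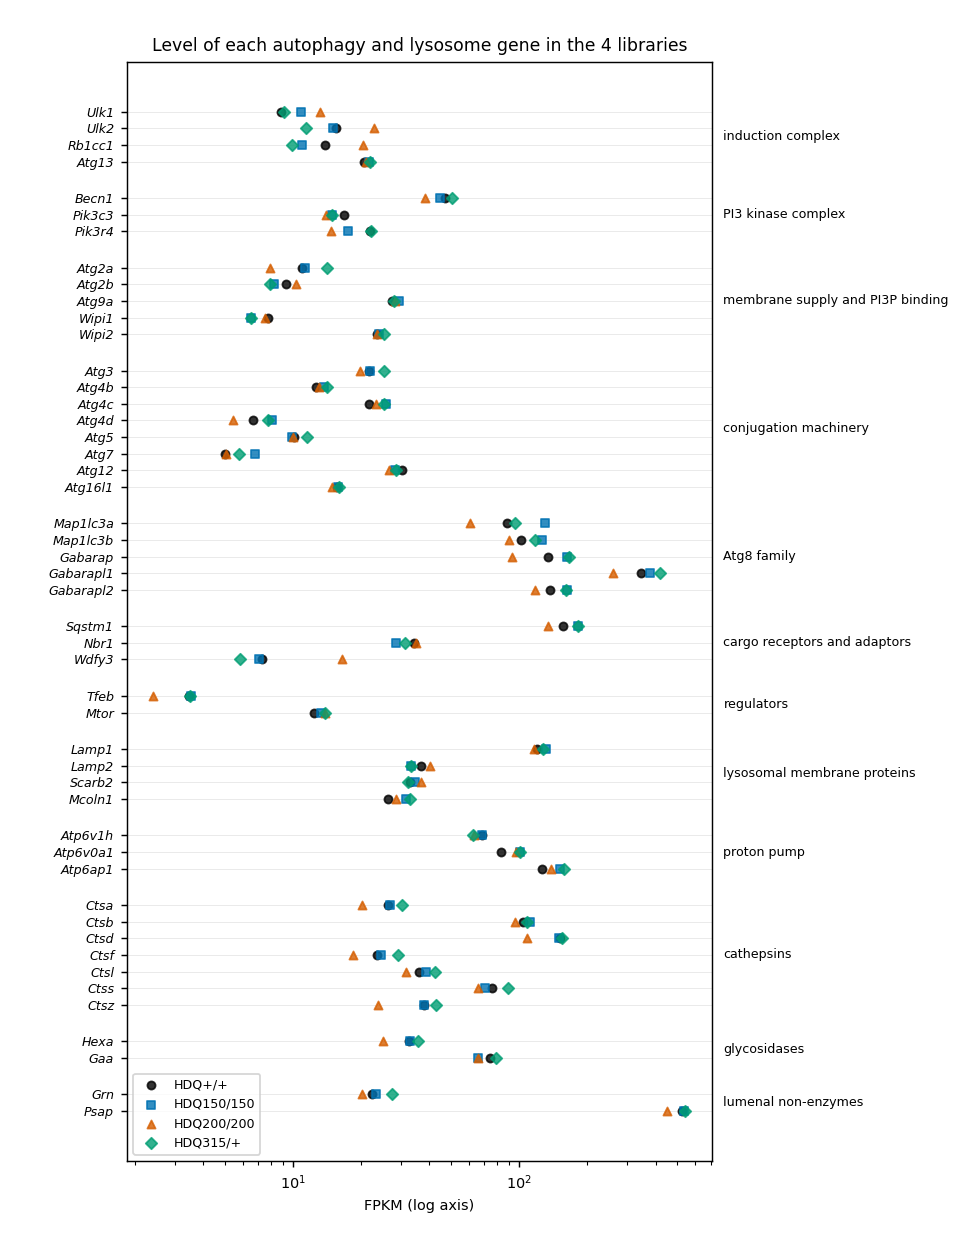
FPKM (log axis) of each of the 48 genes, grouped by role, with 1 point per library (no replicates, so no error bars). Atg8 family genes, Sqstm1 and Psap lie to the right, Tfeb is lowest, and Wdfy3 shows the widest gap between HDQ200/200 (16.5 FPKM) and the other libraries (5.84 to 7.28 FPKM).

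Each mutant library was then compared with the HDQ+/+ library, which all 3 comparisons share. Differences are log2 ratios of FPKM + 1, which compresses the differences of weakly expressed genes, and a gene was counted as higher or lower from 1.5-fold (0.58 on the log2 scale). Few of the 48 genes reached that size. In HDQ150/150 none did in either direction, where 2.99% of all tested genes were higher and 3.35% lower. In HDQ200/200, Wdfy3 rose and Ctsz fell, 1 of 48 in each direction, where 5.39% of all genes were higher and 8.82% lower. In HDQ315/+ none did, where 2.91% of all genes were higher and 2.14% lower. Over all tested genes the median log2 ratio was -0.00 in HDQ150/150, -0.05 in HDQ200/200 and 0.04 in HDQ315/+, and over the 48 genes it was 0.04, -0.13 and 0.11. A mean of 10 FPKM or more was reached by 6536 of all tested genes and by 42 of the 48. At that level the medians were 0.01, -0.15 and 0.08 over all genes and 0.05, -0.13 and 0.12 over the 42. In HDQ200/200 the 42 were thus not below all genes of that level. Signs given below are those of FPKM as deposited, and 9, 18 and 12 of the 48 genes changed sign in HDQ150/150, HDQ200/200 and HDQ315/+ under at least 1 alternative processing.

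**Figure D2:**
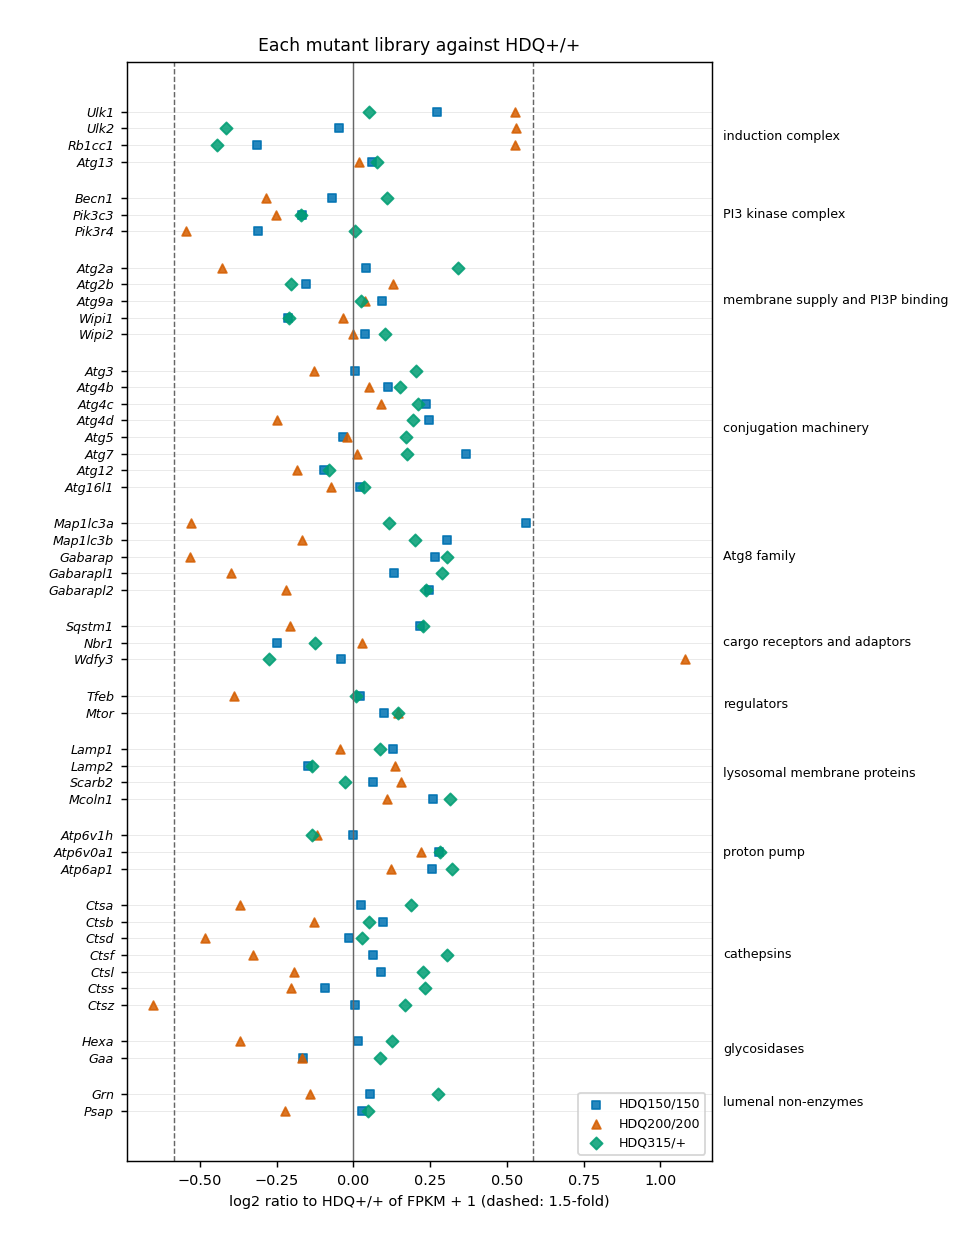
Log2 ratio of FPKM + 1 to HDQ+/+ for each of the 48 genes in HDQ150/150 (squares), HDQ200/200 (triangles) and HDQ315/+ (diamonds), 1 library each. Dashed lines mark 1.5-fold, and only Wdfy3 (1.08) and Ctsz (-0.65), both in HDQ200/200, lie outside them.

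The gene that differed most was Wdfy3 (chromosome 5, 101832952 to 102070133 on mm10), which encodes Alfy, a very large adaptor that links ubiquitinated aggregates to the forming autophagosome. Its level was 7.28, 7.05, 16.5 and 5.84 FPKM in HDQ+/+, HDQ150/150, HDQ200/200 and HDQ315/+. The HDQ200/200 library stood above the other 3, which lay close together. The log2 ratio to HDQ+/+ was 1.08 in HDQ200/200, -0.04 in HDQ150/150 and -0.28 in HDQ315/+. The deposited scaled counts, divided by the size of 1 fragment, gave 8704 fragments in HDQ200/200 and 4109 in HDQ+/+. The ratio of scaled counts was 2.43, with an exact Clopper-Pearson 95% interval of 2.34 to 2.52, which like all intervals here covers counting error only. Wdfy3 also had the longest transcript of the 48, with an implied length of 15117 bases, and 35 of the 12895 tested genes were longer.
Length matters in this library, because the ratio of HDQ200/200 to HDQ+/+ rose with transcript length across all tested genes. Implied length is the scaled count per FPKM, scaled to the library total, as a geometric mean of the libraries. Subtracting a smooth (lowess) trend of the ratio on length, fitted over all tested genes, left 0.45 for Wdfy3, below the 1.5-fold size.

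Both other cargo receptors stayed inside 1.5-fold. Sqstm1, whose protein carries ubiquitinated cargo and is itself degraded with it, had log2 ratios of 0.22, -0.21 and 0.23 in HDQ150/150, HDQ200/200 and HDQ315/+. Nbr1, a related receptor, was at 34.2, 28.6, 34.8 and 31.2 FPKM in the 4 libraries, with ratios of -0.25, 0.03 and -0.13. Sqstm1 was below HDQ+/+ in the library in which Wdfy3 was above it.

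In the induction complex, the kinases ULK1 and ULK2 bind the scaffold FIP200 and the adaptor ATG13. Of its genes among the 48, Ulk1, Ulk2 and Rb1cc1 came close to the 1.5-fold size in HDQ200/200, and Atg13 did not. Ulk1 was at 8.82, 10.9, 13.1 and 9.16 FPKM in HDQ+/+, HDQ150/150, HDQ200/200 and HDQ315/+. Ulk2 was at 15.6, 15.0, 22.9 and 11.4 FPKM in that order, and Rb1cc1, which encodes FIP200, at 13.9, 10.9, 20.4 and 9.92 FPKM. In these 3 genes HDQ200/200 was the highest library, and in Ulk2 and Rb1cc1 HDQ315/+ was the lowest. Each of the 3 had a log2 ratio of 0.53 in HDQ200/200. Atg13 was between 20.7 and 21.9 FPKM in all 4 libraries, with a log2 ratio of 0.02 in HDQ200/200. The median over these 4 genes was 0.53 in HDQ200/200 and stayed above 0 under every alternative processing tried, from 0.30 to 0.60. After the length correction the values were 0.24 for Ulk1, 0.37 for Ulk2 and 0.35 for Rb1cc1.
In HDQ315/+ the log2 ratios of Ulk2 and Rb1cc1 were -0.41 and -0.44, and that of Ulk1 was 0.05.

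The lipid kinase complex makes the phosphatidylinositol 3-phosphate that marks the growing membrane. All 3 genes were below HDQ+/+ in HDQ200/200 and in HDQ150/150, within 1.5-fold, with medians of -0.28 and -0.17 that kept their sign under every alternative tried, although Becn1 alone reached 0.01 in HDQ150/150 with scaled counts. Becn1, the regulatory subunit Beclin 1, was at 46.8, 44.5, 38.2 and 50.5 FPKM in HDQ+/+, HDQ150/150, HDQ200/200 and HDQ315/+. Pik3c3, the catalytic subunit, was at 16.8, 14.9, 14.0 and 14.9 FPKM. Pik3r4, which anchors the kinase, was at 22.0, 17.5, 14.8 and 22.1 FPKM, and its log2 ratio of -0.55 in HDQ200/200 was the lowest of the autophagosome class. In scaled counts, however, the Pik3r4 ratio in HDQ200/200 was only 0.932 (95% interval 0.877 to 0.989), or -0.10 on the log2 scale. Exons of Becn1 overlapped those of Cntd1, on the opposite strand, over 43.9% of their length in the GENCODE M21 annotation, so its value is uncertain where reads were counted without strand.

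The 2 deposited units gave different ratios for some genes, most often in HDQ200/200. The difference between the 2 log2 ratios was first centred on its median over all tested genes, which was -0.05 in HDQ150/150, -0.06 in HDQ200/200 and 0.02 in HDQ315/+. In HDQ200/200 the centred difference was then at least 1.25-fold for 4 of the 48 genes, Pik3r4, Atg2a, Atg2b and Mtor, and for 6.04% of all tested genes. In HDQ150/150 and HDQ315/+ this held for 0 of 48, against 2.51% and 4.16% of all genes. Atg2a, a lipid carrier that feeds the growing membrane, went in opposite directions. It was at 11, 11.4, 7.93 and 14.2 FPKM in HDQ+/+, HDQ150/150, HDQ200/200 and HDQ315/+. The log2 ratio in HDQ200/200 was -0.43 from FPKM but 0.37 from scaled counts, where the ratio was 1.29 (95% interval 1.21 to 1.38). Ratios opposite by at least 0.2 each way occurred in 0.419% of all tested genes. The length implied by the 2 units for Atg2a was 7012 bases in HDQ200/200 and 3302 to 4069 bases in the other libraries. Its paralogue Atg2b had log2 ratios of 0.13 from FPKM and 0.53 from scaled counts, and Mtor had 0.15 and 0.66. No direction is therefore given for Atg2a in HDQ200/200.

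**Figure D3:**
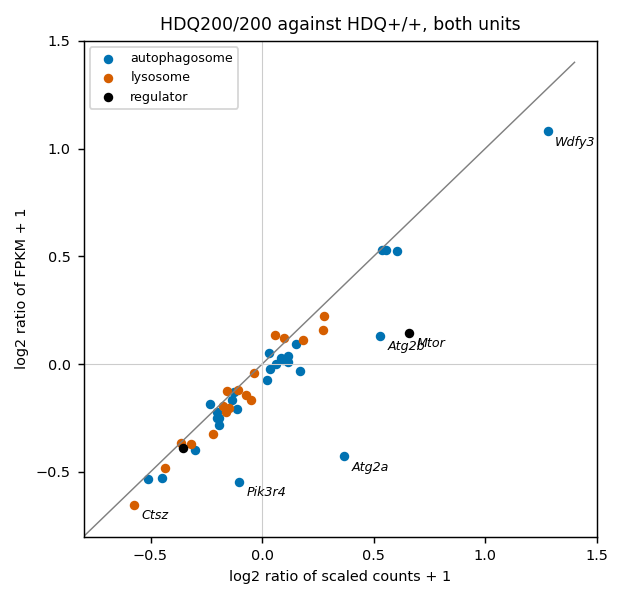
Log2 ratio of HDQ200/200 to HDQ+/+ for the 48 genes, from FPKM (vertical) and from scaled counts (horizontal), with the line of equal ratios. Pik3r4, Atg2a, Atg2b and Mtor lie well below the line, and Atg2a has opposite signs (-0.43 and 0.37).

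The other genes of membrane supply and lipid binding stayed near HDQ+/+. Atg9a, whose protein moves lipids between the leaflets of the first vesicles, was between 27.5 and 29.4 FPKM in the 4 libraries. Wipi2, which binds the lipid mark and recruits the conjugation machinery, was between 23.4 and 25.3 FPKM. Wipi1, a relative, was at 7.73, 6.53, 7.53 and 6.56 FPKM, with log2 ratios of -0.21, -0.03 and -0.21 in HDQ150/150, HDQ200/200 and HDQ315/+.

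None of the 8 genes of the conjugation machinery reached 1.5-fold in any mutant, where 2.14% to 8.82% of all genes did per direction. Atg7, the activating enzyme, had the highest ratio, at 5.03, 6.78, 5.08 and 5.81 FPKM and a log2 ratio of 0.37 in HDQ150/150. Atg3, the conjugating enzyme that hands Atg8 proteins to lipid, was at 21.7, 21.8, 19.8 and 25.2 FPKM. Atg12, Atg5 and Atg16l1, whose proteins form the complex that directs this step, had log2 ratios between -0.19 and 0.17 in the 3 mutants. The Atg4 proteases, which trim Atg8 proteins and release them again, ran from -0.25 for Atg4d in HDQ200/200 to 0.25 for Atg4d in HDQ150/150. In HDQ315/+ 7 of the 8 genes were above HDQ+/+, although Atg4c (-0.09) and Atg16l1 (-0.03) were below 0 under their lowest alternative. The machinery had a median of 0.17, which stayed above 0 under every alternative tried (0.05 to 0.19). The median in HDQ200/200 was -0.05 and changed sign with the scaling.

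The Atg8 family, the proteins that coat the autophagosome membrane, stood on the other side of HDQ+/+ from Ulk1, Ulk2 and Rb1cc1 in HDQ200/200. All 5 genes were below HDQ+/+ in HDQ200/200 and above it in HDQ150/150 and HDQ315/+, each within 1.5-fold. Map1lc3a, which encodes LC3A, was at 87.9, 130.3, 60.7 and 95.4 FPKM in HDQ+/+, HDQ150/150, HDQ200/200 and HDQ315/+. Its log2 ratio of 0.56 in HDQ150/150 was the highest of the 48 genes in that library and just under 1.5-fold, and the ratio of scaled counts was 1.53 (95% interval 1.46 to 1.60). Gabarap was at 135, 162, 92.8 and 166 FPKM, and Map1lc3b, which encodes LC3B, at 102, 126, 90.4 and 117 FPKM. In both, as in Gabarapl1 and Gabarapl2, HDQ200/200 was the lowest library. The summed FPKM of the 5 genes was 804, 957, 621 and 959.7 in HDQ+/+, HDQ150/150, HDQ200/200 and HDQ315/+, or 59.6%, 63.0%, 54.2% and 62.5% of the autophagosome class.
The family's median log2 ratio was 0.27, -0.40 and 0.24 in HDQ150/150, HDQ200/200 and HDQ315/+, and its sign held under every alternative tried. These are short transcripts, from 984 bases for Gabarap to 1763 for Gabarapl1. After the length correction the medians were 0.19, -0.13 and 0.06. In HDQ200/200, Map1lc3b and Gabarapl2 were then at 0.06 and 0.15, above 0, and in HDQ315/+ Map1lc3a was at -0.11.

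Both regulators stayed within 1.5-fold with FPKM as deposited. Tfeb had log2 ratios of 0.02, -0.39 and 0.01, from 249 to 373 fragments per library, the fewest of the 48 genes. Mtor was at 12.4, 13.3, 13.8 and 13.8 FPKM, with log2 ratios of 0.10, 0.15 and 0.15. In HDQ200/200, however, Mtor was at 0.66 in scaled counts, past 1.5-fold, and at -0.13 under its lowest alternative. Its lowest alternative in HDQ315/+ was -0.02.

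None of the 4 genes for lysosomal membrane proteins among the 48 reached 1.5-fold in any mutant. Of all tested genes, 2.14% to 8.82% did per direction. Lamp1 and Lamp2 encode the main glycoproteins of the lysosomal membrane. Lamp1 was at 119.5, 131, 116 and 127 FPKM. Lamp2 was at 36.7, 33.1, 40.4 and 33.3 FPKM, and its log2 ratio of -0.14 was the lowest of the lysosome class in HDQ315/+. The 2 genes had opposite signs in each mutant, all of small size, but after the length correction both were above 0 in HDQ200/200, at 0.09 and 0.30, and neither was above 0 in HDQ315/+. Scarb2, the receptor that carries glucocerebrosidase to the lysosome, lay between 32.4 and 36.9 FPKM. Mcoln1, a calcium channel, was at 26.3, 31.7, 28.5 and 33.0 FPKM, but its row in the table is merged with the neighbouring gene Pnpla6, so the value belongs to both.

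Of the proton pump, 3 subunits are among the 48 genes, and 2 of these 3 were above HDQ+/+ in every mutant. Atp6v0a1, a membrane subunit, was at 83.0, 101, 96.9 and 101 FPKM in HDQ+/+, HDQ150/150, HDQ200/200 and HDQ315/+. Its log2 ratios of 0.28 in HDQ150/150 and 0.22 in HDQ200/200 were the highest of the lysosome class in those libraries, and the ratio of 0.32 for Atp6ap1 was the highest in HDQ315/+. Atp6v1h, a subunit of the cytosolic part, was at 68.6, 68.6, 63.0 and 62.4 FPKM, with no value above HDQ+/+ beyond rounding. The median over the 3 was 0.26, 0.12 and 0.28 and stayed above 0 under every alternative tried. None of these 3 reached 1.5-fold, where 2.14% to 8.82% of all tested genes did per direction. Other subunits of the pump are in a wider list and not in this median.

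Cathepsins, the lysosomal proteases, were all below HDQ+/+ in HDQ200/200, with a median log2 ratio of -0.33, and all above it in HDQ315/+, with a median of 0.19. Both medians kept their sign under every alternative tried. Only Ctsz passed 1.5-fold. Ctsz (chromosome 2, 174415803 to 174438992), which encodes cathepsin Z, a carboxypeptidase, was at 37.9, 38.0, 23.7 and 42.7 FPKM in HDQ+/+, HDQ150/150, HDQ200/200 and HDQ315/+. The HDQ200/200 library was lower than the other 3. The log2 ratio was -0.65, the ratio of scaled counts 0.672 (95% interval 0.629 to 0.717), and the length-corrected ratio -0.43, inside 1.5-fold. Ctsd, the main aspartic protease, was at 151, 149.7, 108 and 154 FPKM, with a ratio of -0.48 in HDQ200/200. Ctsa, which also protects other lysosomal enzymes, was at 26.4, 26.9, 20.2 and 30.2 FPKM and had -0.37. In both, HDQ200/200 was the lowest library and HDQ315/+ the highest. Exons of Ctsd share 34.4% of their length with Gm49369 in the GENCODE M21 annotation, so its level is uncertain. Overlaps with other genes of 9.31% to 19.3% affect Atg4d, Sqstm1, Ctsb, Hexa, Ctsa and Lamp1.
The remaining 4, the cysteine proteases Ctsb, Ctsf, Ctsl and Ctss, had ratios from -0.33 to -0.13 in HDQ200/200 and from 0.05 to 0.30 in HDQ315/+. Ctsf was at 23.4, 24.5, 18.5 and 29.1 FPKM. Ctss, at 75.7, 70.9, 65.6 and 89.2 FPKM, is known in brain mainly from microglia. After the length correction 5 of the 7 cathepsins were below 0 in HDQ200/200, while Ctsl was at 0.05 and Ctss at 0.15, and Ctsd was at -0.06 in HDQ315/+. Ctsb was the other cathepsin whose sign in HDQ315/+ depended on the scaling, with -0.02 as its lowest value.

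Microglia markers lay beside these cathepsin values. All 18 of 18 listed markers were measured and none was at 0. Their summed FPKM was 306, 337, 239 and 323 in HDQ+/+, HDQ150/150, HDQ200/200 and HDQ315/+. It was lowest in HDQ200/200, as for Ctsz, but highest in HDQ150/150, whereas Ctsz was highest in HDQ315/+. C1qa, C1qb and Aif1 were lower by at least 1.5-fold in HDQ200/200 and Cx3cr1 in HDQ315/+, where 8.82% and 2.14% of all tested genes were. The list's median log2 ratio was 0.13, -0.24 and 0.10. The length-corrected medians were 0.09, -0.15 and -0.10, with the sign turned in HDQ315/+. Oligodendrocyte markers were also lowest in HDQ200/200, with uncorrected medians of -0.20, -0.28 and -0.13 in HDQ150/150, HDQ200/200 and HDQ315/+. The part of microglial content in the cathepsin values was not tested.

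The other enzymes and lumenal proteins of the lysosome were also below HDQ+/+ in HDQ200/200. Hexa, a subunit of the enzyme that degrades gangliosides, was at 32.5, 32.9, 25.0 and 35.5 FPKM, with a ratio of -0.37. Gaa, which degrades glycogen, was at 74.2, 66.1, 66.0 and 78.8 FPKM, and its ratio of -0.17 in HDQ150/150 was the lowest of the lysosome class there. Grn, which encodes progranulin, was at 22.4, 23.3, 20.2 and 27.3 FPKM. Psap had ratios of 0.03, -0.22 and 0.05. All 4 genes were lower in HDQ200/200 and higher in HDQ315/+ than in HDQ+/+, inside 1.5-fold, although Psap in HDQ315/+ reached -0.03 under its lowest alternative.

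Autophagosome and lysosome genes were then set against each other as classes. In HDQ150/150 the median log2 ratio was 0.04 in both, with 17 of 28 autophagosome genes and 14 of 18 lysosome genes above 0. In HDQ200/200 it was -0.05 for autophagosome and -0.15 for lysosome genes, with 11 of 28 and 5 of 18 above 0. In HDQ315/+ it was 0.11 and 0.15, with 20 of 28 and 15 of 18 above 0. Lysosome minus autophagosome, the difference of medians was 0.00, -0.10 and 0.04. Single genes in HDQ200/200 ran from -0.55 to 1.08 for autophagosome genes and from -0.65 to 0.22 for lysosome genes. The difference in HDQ200/200 was -0.16 in scaled counts and -0.03 among genes averaging 10 FPKM or more. At that level the medians were -0.13 for autophagosome and -0.15 for lysosome genes, beside -0.15 over all tested genes of that level. It turned to 0.10 after the length correction, while the difference of means stayed below 0 at -0.03. The autophagosome class is also the longer one, with a median implied length of 3314 bases against 2256, and the wider one, from 984 to 15117 bases against 1152 to 5037.

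**Figure D4:**
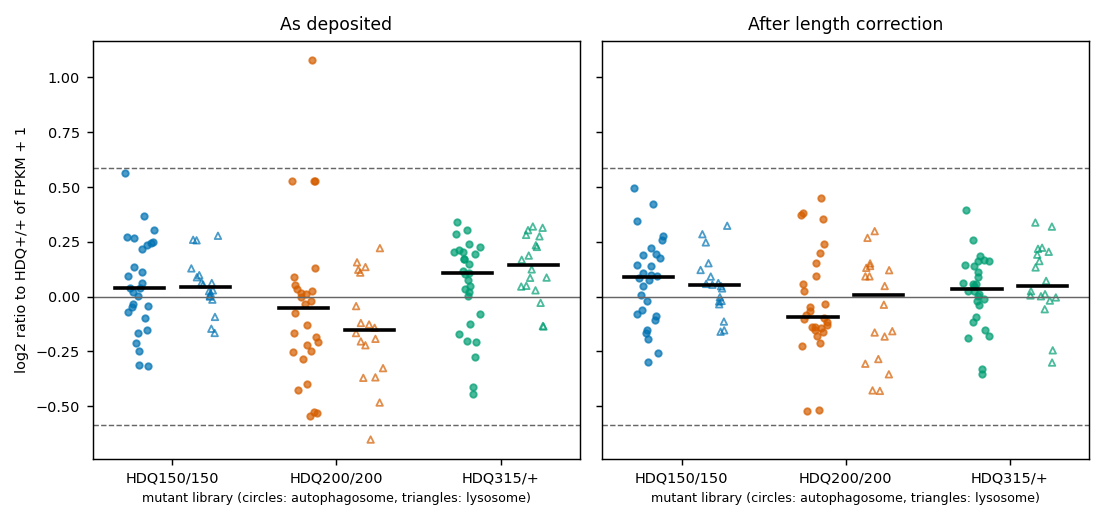
Log2 ratio of FPKM + 1 to HDQ+/+ of the 28 autophagosome genes (filled circles) and 18 lysosome genes (open triangles) in each mutant, as deposited (left) and after subtracting the length trend (right). Black bars are class medians and dashed lines 1.5-fold; in HDQ200/200 the medians are -0.05 and -0.15 on the left and -0.09 and 0.01 on the right.

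The ratios were related to transcript length in HDQ200/200 and HDQ315/+ more than in HDQ150/150. Across the 48 genes, Spearman's correlation of the log2 ratio with implied length was -0.19 in HDQ150/150, 0.55 in HDQ200/200 and -0.46 in HDQ315/+. Across all 12895 tested genes it was -0.20, 0.59 and -0.47, so the 48 genes shared a trend of the whole libraries. Genes are not independent replicates, and the points within a comparison share both libraries. In HDQ200/200 the 16 shortest of the 48 had a median ratio of -0.20, the middle 16 had -0.21 and the 16 longest 0.03. In HDQ315/+ the medians were 0.20, 0.10 and 0.05 in the same order, and in HDQ150/150 all 3 were 0.04. The gene groups that stood highest and lowest in HDQ200/200 differ in length in the same direction, with Ulk1 at 6679, Ulk2 at 5024 and Rb1cc1 at 5206 bases against 984 to 1763 bases for the Atg8 family. What set the length trend of these libraries was not tested.

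**Figure D5:**
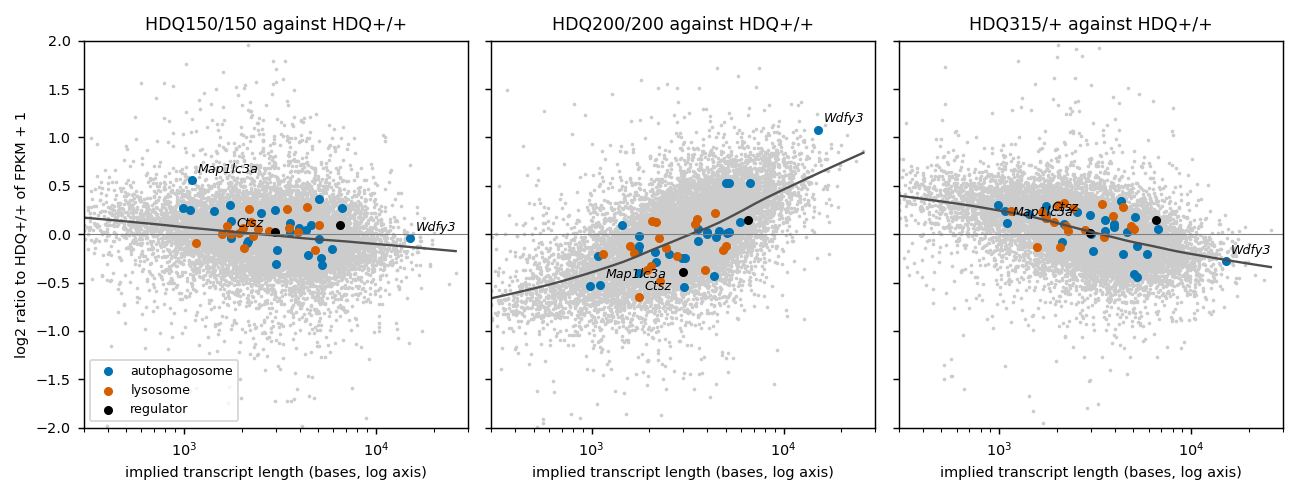
Log2 ratio of FPKM + 1 to HDQ+/+ against implied transcript length (log axis) for all tested genes (grey), autophagosome genes (blue), lysosome genes (orange) and regulators (black), with the lowess trend over all tested genes. The trend rises in HDQ200/200, where Spearman's correlation over the 48 genes was 0.55, and falls in HDQ315/+, where it was -0.46; points outside the axis limits are not drawn.

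Comparisons between mutant libraries do not use the HDQ+/+ library. Between HDQ315/+ and HDQ150/150 no gene of the 48 reached 1.5-fold, where 2.53% of all tested genes were higher and 1.98% lower in HDQ315/+. Map1lc3a was past it after the length correction, at -0.61. In HDQ200/200 against HDQ150/150, Rb1cc1 and Wdfy3 were higher, 2 of 48 where 7.63% of all genes were. Map1lc3a, Gabarap and Ctsz were lower, 3 of 48 where 10.8% of all genes were. The log2 ratios were 0.84 for Rb1cc1, 1.12 for Wdfy3, -1.09 for Map1lc3a, -0.80 for Gabarap and -0.66 for Ctsz. Rb1cc1 and Map1lc3a kept 1.5-fold after the length correction, at 0.63 and -0.65, and Wdfy3, Gabarap and Ctsz did not. Atg2a was then past it, at -0.59. In scaled counts, however, the Atg2a ratio was 1.24 (95% interval 1.15 to 1.33), the opposite direction. No direction is therefore given for Atg2a in this pair.
In HDQ315/+ against HDQ200/200, 6 genes were higher, where 18.2% of all tested genes were, and 3 were lower, where 11% were. The median ratio of all genes was 0.11 in this pair. The higher genes were Gabarap at 0.84, Ctsz at 0.82, Atg2a at 0.77, Gabarapl1 at 0.69, Map1lc3a at 0.64 and Ctsf at 0.63. The lower genes were Wdfy3 at -1.36, Rb1cc1 at -0.97 and Ulk2 at -0.94. Ulk2 and Rb1cc1 were at -0.72 and -0.73 after the length correction. The other calls but that of Atg2a were inside 1.5-fold after it, at 0.04 for Map1lc3a, 0.18 for Gabarap, 0.31 for Gabarapl1, 0.33 for Ctsf, 0.44 for Ctsz and -0.49 for Wdfy3. Ctsa, at 0.56 before the correction, was at 0.63 after it, past 1.5-fold. Atg2a was at 0.90 after the length correction but had the opposite sign in scaled counts, at -0.25.

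The 4 genes with the CLEAR core stayed within 1.5-fold in all 3 mutants, where 2.14% to 8.82% of all genes passed it per direction. Ctsd, Mcoln1, Ctsa and Atg3 had log2 ratios of -0.01, 0.26, 0.03 and 0.00 in HDQ150/150. In HDQ200/200 they were at -0.48, 0.11, -0.37 and -0.13, and in HDQ315/+ at 0.03, 0.31, 0.19 and 0.21. In HDQ200/200 the value above 0 is that of Mcoln1, whose row is merged with Pnpla6, and the other 3 were below 0, of which Atg3 was at 0.10 after the length correction.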

How the data were processed

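Poly A+ RNA from striatum was sequenced as paired ends, 1 library for each of 4 genotypes, which were taken from the genotype labels. The deposited table holds FPKM values, used as deposited per the file headers, and a count column that is a scaled signal: 98.1% to 98.4% of the deposited values in a library were whole multiples of its smallest step (tolerance 0.05 of a step), which gave the fragments. The submitters' processing notes name Cufflinks 2.1.1, Cuffnorm and Cuffdiff, TopHat2 2.0.11 and Bowtie2 2.1.0, bcl2fastq 1.8.4 and the build mm10, without giving their roles. What annotation, strand setting and scaling were used was not given in the sources used here.

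Unnamed features (5934) and short RNA genes (648) were left out, and a mean FPKM of at least 1 left 12895 genes. Ratios are differences of log2(FPKM + 1), called from 1.5-fold. Scaled-count ratios carry exact Clopper-Pearson 95% intervals. Length trends were fitted with lowess (span 0.3; statsmodels 0.14.6, Python 3.11.15, numpy 2.4.6, pandas 2.3.3, scipy 1.17.1), and the steps were tested on simulated data. Tests that need replicates were not used. Alternatives were pseudocounts of 0.1 and 5, a mean FPKM of at least 10, no filter, median centring, the upper quartile, scaled counts, a length correction, 2-fold, class means, and classes without Ctss. Classes without Mcoln1, and all alternatives for pairs of mutant libraries, were chosen after seeing the data.

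The genes, their classes, the marker lists and the wider lists were chosen with earlier results of these data known. Every one of the 48 may be named; values in all 4 libraries are given for genes past 1.5-fold in any of the 6 comparisons, for the highest and lowest ratio of each class, and for the 5 highest levels, and others were added by role. From wider lists, genes past 1.5-fold against HDQ+/+ are named, at most the 5 largest per comparison. In the wider lysosome list, 1 gene is not reported here and was left out of its counts. Promoters are shown for genes with the core motif, at most 4.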

Additional observations from a re-analysis of the deposited data

How the results depend on the processing

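Counts of the 48 genes past 1.5-fold moved with the processing. With scaled counts, HDQ150/150 had 1 higher gene (Map1lc3a) in place of 0, HDQ200/200 had 3 higher (Ulk1, Wdfy3 and Mtor) in place of 1 and 0 lower in place of 1, and HDQ315/+ had 1 lower (Rb1cc1) in place of 0. In HDQ200/200 the upper quartile gave 4 higher (Ulk1, Ulk2, Rb1cc1 and Wdfy3) and 0 lower, the length correction 0 higher and 0 lower, a mean FPKM of at least 10 gave 0 higher because Wdfy3 was left out, and a pseudocount of 5 or a 2-fold size gave 0 lower. For Ctsz the log2 ratio was between -0.58 and -0.43 under the alternatives other than 2-fold that lost it, and -0.65 with FPKM as deposited. Lysosome minus autophagosome in HDQ200/200 was 0.10 after the length correction, -0.16 with scaled counts and -0.03 among genes averaging 10 FPKM or more, in place of -0.10. Atg2a in HDQ315/+ against HDQ200/200 was -0.25 in scaled counts, in place of 0.77. The cause of these shifts was not tested. Over all alternatives for single genes past 1.5-fold, those named here included, 84 values kept direction and side of 1.5-fold, 24 kept direction only and 1, that of Atg2a, reversed. The limit of 10 FPKM leaves the ratio of a single gene as it was. Values under that limit are among the 84 and could not have moved. Of the 48 genes, 9, 18 and 12 changed sign under at least 1 alternative in HDQ150/150, HDQ200/200 and HDQ315/+. No paired analysis was possible because each genotype has 1 library. Leaving out a replicate was not possible for the same reason. Depth limits Tfeb most, at 249 to 373 fragments.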

Other observations

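Wider lists of the same pathways, which exclude the 48 genes, were counted in the same way. Ratios without a length-corrected value beside them are those of FPKM as deposited, and the length trend was not removed from them. Over all tested genes the share higher in HDQ150/150, HDQ200/200 and HDQ315/+ was 2.99%, 5.39% and 2.91%, and the share lower 3.35%, 8.82% and 2.14%. Nothing is read from the counts of these lists beyond the values of the genes named. Of 59 further lysosome genes, 1 was higher in HDQ150/150 than in HDQ+/+ by at least 1.5-fold and 0 lower, 4 were higher and 3 lower in HDQ200/200, and 0 in either direction in HDQ315/+. Their median log2 ratios were 0.13, -0.05 and 0.11, beside -0.00, -0.05 and 0.04 over all tested genes. With the length correction they were 0.09, 0.06 and 0.03, with the sign turned in HDQ200/200. Atp6v1g2, a proton pump subunit, was at 196, 295, 193 and 273 FPKM in HDQ+/+, HDQ150/150, HDQ200/200 and HDQ315/+, with a log2 ratio of 0.59 in HDQ150/150. In HDQ200/200, Ids, a sulfatase that degrades glycosaminoglycans, was at 212 FPKM against 127 in HDQ+/+ (log2 ratio 0.73), and at 0.82 after the length correction. Slc17a5, a sialic acid exporter, had 0.71, and Arsb, a sulfatase, had 0.66. In the other direction Cd63, a tetraspanin of lysosomes and late endosomes, was at 50.3 FPKM against 88.6 (-0.81), and at -0.31 after the length correction. Dnase2a, a lysosomal nuclease, was at 1.12 FPKM against 2.48 (-0.71).

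Of 33 further autophagosome genes, 0 were past 1.5-fold in HDQ150/150 and in HDQ315/+, and 1 was higher and 2 lower in HDQ200/200. Stx17, the fusion protein of the autophagosome, was at 6.82 FPKM against 4.21 in HDQ+/+ (0.59), and Vamp8, its partner on the lysosome, at 4.22 against 9.11 (-0.95). After the length correction they were at 0.47 and -0.54. The third gene, named 9430023L20Rik in the table, had -0.70. Of 34 genes that control mTORC1 and TFEB, 2 were lower in HDQ150/150 and 0 higher, 1 was higher and 3 lower in HDQ200/200, and 1 was higher and 2 lower in HDQ315/+. Rragd, a GTPase that brings mTORC1 to the lysosome, was at 44.6, 24.9, 39.3 and 24.0 FPKM in HDQ+/+, HDQ150/150, HDQ200/200 and HDQ315/+. Its log2 ratios were -0.82, -0.18 and -0.87, and -0.76, -0.36 and -0.77 after the length correction. Ppp3ca, the catalytic subunit of calcineurin, which dephosphorylates TFEB, was at 961, 616, 616 and 849 FPKM. Its log2 ratio was -0.64 in both HDQ150/150 and HDQ200/200. Lamtor4 and Lamtor2, subunits of the lysosomal anchor of mTORC1, were at -0.87 and -0.61 in HDQ200/200, and Lamtor2 was at 0.61 in HDQ315/+. Both values of Lamtor2 were small after the length correction, at -0.04 and 0.26. Prkaa2, a catalytic subunit of AMPK, had 0.75 in HDQ200/200, and Sesn3, a stress-induced inhibitor of mTORC1, -0.71 in HDQ315/+. Striatal projection neuron markers had median log2 ratios of -1.11, -0.82 and -0.64 in HDQ150/150, HDQ200/200 and HDQ315/+. Rragd passed 1.5-fold only in HDQ150/150 and HDQ315/+, and Ppp3ca only in HDQ150/150 and HDQ200/200. The part of projection neuron content in these values was not tested.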
